A study of Mus musculus with 22 samples.

Results

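Aortas kept with bacterial lipopolysaccharide (LPS) were compared directly with aortas kept with oxidized phospholipid (oxPAPC). The members of the comparison were chosen by sample title: the 3 arrays titled LPS and the 3 titled oxPAPC, 6 of the 22 arrays of the series, over all genes. RNA of the aortic intima was measured on Affymetrix 3′ expression arrays, 1 per sample, and 7550 of 11807 named genes passed a filter on low values and were tested. Both groups came from wild-type C57BL/6 mice on chow. Each aorta was opened, laid in a well with DMEM and 1% FBS, and held for 4 h, with LPS at 4 ng/mL or with oxPAPC at 50 µg/mL. Only the added agent separated the groups by the labels. The doses differ by mass, so the comparison is of these preparations at these doses. A further 3 aortas in the same medium with nothing added (called medium here) give each gene a level without either agent. Another 3, with oxidized low-density lipoprotein, were not compared. They entered the filter on low values, the principal components below and the fit, where they add to its estimate of spread. The labels do not give the age of the incubated mice or say how many animals an array holds, so every p-value measures only the spread between arrays.

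LPS, a component of the outer membrane of Gram-negative bacteria, is recognised by TLR4 with its partner MD-2. One arm of that receptor, through MyD88, releases NF-kB to the nucleus and turns on cytokines, adhesion molecules and NF-kB's own inhibitors. The other, through TRIF, leads to type I interferon and the genes it induces. OxPAPC is a mixture of oxidation products of a phosphatidylcholine found in oxidized lipoproteins. Its reactive members modify the sensor KEAP1 and so free the transcription factor NRF2, which turns on genes of glutathione synthesis and detoxification, and misfolded or modified proteins free HSF1, which turns on heat shock genes. Oxidized phospholipids are also known to interfere with the binding of LPS to its receptor in endothelial cells.

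The array of oxPAPC replicate 13 stood apart from the other oxPAPC arrays. Over the tested genes it correlated at r = 0.955 and 0.960 with replicates 11 and 12, which correlated at 0.984 with each other, whereas LPS arrays correlated at 0.965 to 0.978 among themselves and at 0.923 to 0.958 with oxPAPC arrays. On the first principal component, which held 30.9% of the variance, replicate 13 lay at 10.05, replicates 11 and 12 at 36.87 and 34.93, LPS replicates 3, 4 and 10 at -7.07, -6.41 and 7.19, and medium arrays between -21.64 and -17.68. Main counts are therefore also given without replicate 13. Endothelial cells, named by the labels, were seen through 23 tested markers, with a mean log2 level of 8.28 to 8.75 with LPS, 8.05 to 8.50 with oxPAPC and 8.92 to 9.05 in medium. Smooth muscle markers (17 tested) were also present, at 8.25 to 8.48, 8.36 to 8.77 and 7.22 to 8.09, so the scraped material was not endothelium alone. In these bulk samples fewer cells of a type and less RNA per cell cannot be told apart.

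The regulatory sequences that go with the gene groups below are shown first. The main groups are lists of genes known to be regulated by factors with known binding sites, and binding was not measured here. Every sequence is the 250 bases before the RefSeq start of the gene on GRCm38.p6, 5′ to 3′ on the gene's own strand, with the searched motif in capitals. For Cxcl10, the gene with the largest difference, the window at chr5:92348890-92349139 (minus strand) held 1 interferon-stimulated response element, TTTCNNTTT, read here on the opposite strand. Tnip1 (chr11:54962941-54963190, minus strand) and Il6 (chr5:30012864-30013113, plus strand) held the kappaB site GGGNNTTNC, bound by NF-kB. In Tnip1 the site matched on both strands, in overlapping positions. Gclm (chr3:122245307-122245556, plus strand) held the antioxidant response element TGACNNNGC, bound by NRF2, on the opposite strand. Hspa1b (chr17:34959239-34959488, minus strand) held the heat shock element GAANNTTC, bound by HSF1. The last pair, Gclm and Hspa1b, were added after their values had been seen, to show the groups that were higher with oxPAPC.
Cxcl10: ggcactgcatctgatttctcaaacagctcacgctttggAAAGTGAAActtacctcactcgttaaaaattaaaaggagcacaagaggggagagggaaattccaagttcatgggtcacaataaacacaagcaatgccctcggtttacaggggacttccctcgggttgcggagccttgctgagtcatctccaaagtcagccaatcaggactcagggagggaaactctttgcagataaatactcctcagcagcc
Tnip1: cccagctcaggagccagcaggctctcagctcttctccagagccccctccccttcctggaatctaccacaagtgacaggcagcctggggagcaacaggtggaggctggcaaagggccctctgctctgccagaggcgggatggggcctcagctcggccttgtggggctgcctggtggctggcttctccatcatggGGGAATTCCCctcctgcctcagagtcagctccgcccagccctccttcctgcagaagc
Il6: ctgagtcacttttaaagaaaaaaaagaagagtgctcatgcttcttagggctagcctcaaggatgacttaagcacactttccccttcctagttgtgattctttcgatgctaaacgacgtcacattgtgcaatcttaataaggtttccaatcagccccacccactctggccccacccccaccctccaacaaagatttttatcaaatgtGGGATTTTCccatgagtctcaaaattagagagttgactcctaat
Gclm: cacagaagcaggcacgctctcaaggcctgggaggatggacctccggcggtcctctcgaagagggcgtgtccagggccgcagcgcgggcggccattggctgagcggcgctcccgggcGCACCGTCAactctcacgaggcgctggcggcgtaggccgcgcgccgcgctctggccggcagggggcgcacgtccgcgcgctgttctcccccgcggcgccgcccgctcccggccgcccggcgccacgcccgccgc
Hspa1b: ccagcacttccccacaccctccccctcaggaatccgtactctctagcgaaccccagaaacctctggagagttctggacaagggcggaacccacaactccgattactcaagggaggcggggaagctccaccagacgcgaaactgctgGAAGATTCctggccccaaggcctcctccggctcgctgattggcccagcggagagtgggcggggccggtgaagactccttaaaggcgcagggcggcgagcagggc

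Over windows of 300 bases (250 before to 50 after the start, both strands searched), the response element TTTCNNTTT was in 15 of 21 tested interferon-induced genes with a window (71.4%), against 10.7% of all 27025 windows. GGGNNTTNC was in 9 of 14 NF-kB subunits and feedback genes (64.3%) and 7 of 15 cytokines and chemokines (46.7%), against 15.1% of all windows. TGACNNNGC was in 6 of 20 NRF2 targets (30.0%), against 12.5%, and GAANNTTC in 8 of 14 heat shock genes (57.1%), against 7.95%. The amino acid response element TGATGNAA was in 6 of 22 ATF4 targets (27.3%), against 4.06%, and the sterol regulatory element TCACNCCAC in 0 of 9 sterol genes, against 1.22%. Among the genes found higher with LPS, over all functions, 25.7% of windows held GGGNNTTNC and 51 of 284 held TTTCNNTTT, and among those higher with oxPAPC 10.9% of windows held each. TGACNNNGC was in 11.6% of windows of genes higher with LPS and in 18.5% of those higher with oxPAPC, but among called genes over 2-fold apart the shares were 14.6% and 13.6%. For all tested genes the shares were 17.1% for GGGNNTTNC, 7.97% for TTTCNNTTT and 15.2% for TGACNNNGC. A match describes letters in a window and no more.

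Of the 7550 genes, 653 (8.65%) differed between LPS and oxPAPC at an adjusted p under 0.05 in limma and are named called genes here, with 354 (4.69%) higher with LPS and 299 (3.96%) higher with oxPAPC. The differences on the LPS side were larger. By more than 2-fold, 279 genes (3.7%) differed, 168 higher with LPS and 111 higher with oxPAPC, and by more than 4-fold the numbers were 37 and 7. The 3 arrays of one group did not overlap the 3 of the other in 639 of the 653 called genes, and in 27.8% of all genes tested. Without oxPAPC replicate 13 the calls rose to 1206 (680 and 526). Leaving out LPS replicate 3 or 4 or oxPAPC replicate 11 or 12 gave 320, 261, 259 and 244.

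**Figure D1:**
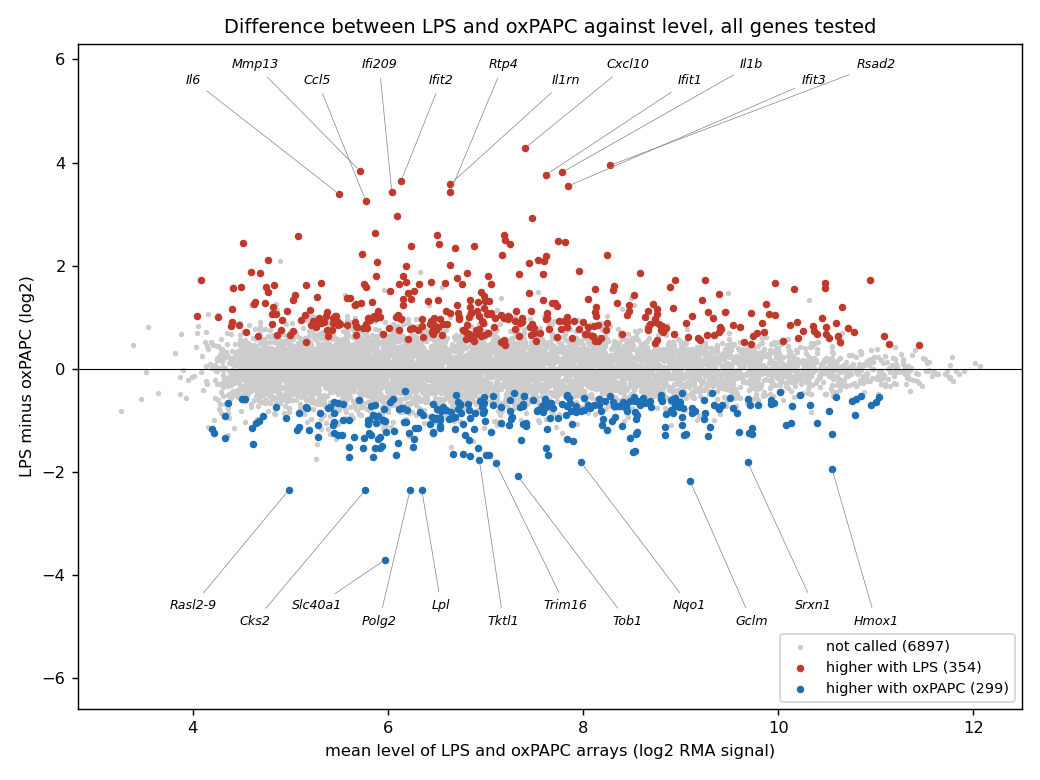
Each point is 1 of 7550 genes, with the mean log2 level of the 6 arrays on the x axis and LPS minus oxPAPC (log2) on the y axis. The 354 genes higher with LPS (red) reach 4.29 (Cxcl10) and the 299 higher with oxPAPC (blue) reach -3.70 (Slc40a1), and the 12 largest differences each way are named.

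Set against medium, the genes higher with LPS than with oxPAPC held both genes that were high with LPS and genes that were low with oxPAPC. Of the 354, 67 were called above medium with LPS and 6 below it, and 2 were called above medium with oxPAPC and 212 below it. Of the 299 higher with oxPAPC, 136 were called above medium with oxPAPC and none below, and 1 was above medium with LPS and 56 below. Over all tested genes, 3.36% were above and 5.68% below medium with LPS, and 8.34% were above and 12.9% below medium with oxPAPC. These counts are a description, because the direct comparison that chose the genes uses the same LPS and oxPAPC arrays, and both comparisons with medium share the medium arrays.

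Interferon-induced genes had the highest median difference of the 36 gene lists. Of 27 tested, 19 were higher with LPS and none with oxPAPC (70.4% called, against 8.65% of all genes). The median difference was 1.65 (log2), against 0.01 over all genes. The count was 19 of 27 without oxPAPC replicate 12 or 13 as well, 20 without LPS replicate 10, 15 without LPS replicate 3, and 14 without LPS replicate 4 or oxPAPC replicate 11. Against medium, the list's median was 1.01 with LPS and -0.43 with oxPAPC, with 11 members called above medium with LPS and 5 called below it with oxPAPC. Over all tested genes, 3.36% were above medium with LPS and 12.9% below it with oxPAPC.

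Cxcl10, a chemokine that draws T cells and is induced by interferon and NF-kB, had a log2 level of 10.07, 9.58 and 9.01 on LPS arrays 3, 4 and 10 and of 4.70, 5.87 and 5.22 on oxPAPC arrays 11, 12 and 13. No oxPAPC array came within 3 log2 units of an LPS array. The difference was 4.29 ± 0.34 (standard error, as for every ± below), or 19.5-fold, with an adjusted p of 4.47e-05 in limma. Against medium, where it lay at 4.89, 4.92 and 4.06, Cxcl10 stood 4.93 ± 0.34 higher with LPS and 0.64 ± 0.34 higher with oxPAPC (adjusted p = 1.93e-05 and 0.189 in limma).

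Rsad2, which encodes the antiviral enzyme viperin, lay at 10.82, 10.37 and 9.56 with LPS and at 5.58, 6.66 and 6.67 with oxPAPC. The lowest LPS array was far above the highest oxPAPC array, and the difference was 3.95 ± 0.38 (adjusted p = 0.000175 in limma). The oxPAPC arrays were at the level of medium, with a difference of -0.22 ± 0.38. The IFIT genes, whose proteins bind foreign RNA, followed the same order: Ifit1 differed by 3.76 ± 0.41, Ifit2 by 3.64 ± 0.43 and Ifit3 by 3.54 ± 0.41. In each of these the LPS replicate 10 was the lowest of its group, at 8.96, 7.02 and 8.78. It was still above every oxPAPC array, the highest of which were 6.50, 4.52 and 6.67. The oxPAPC mean of Ifit2 was below the 40th percentile of the arrays, the level used as the filter.

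Ifi209, a member of the interferon-inducible p200 family of DNA-binding proteins, was at 7.48, 8.28 and 7.49 with LPS and at 4.25, 4.34 and 4.39 with oxPAPC. Its oxPAPC mean was below the 40th percentile of the arrays, the level used as the filter, so the size of 3.42 ± 0.24 depends on values near background. Its genomic neighbours are close relatives in sequence, and whether its probes tell them apart was not tested. Rtp4, a chaperone of receptors that interferon also induces, was at 8.78, 8.26 and 8.01 with LPS and at 4.35, 5.05 and 5.36 with oxPAPC, with a difference of 3.43 ± 0.37 (adjusted p = 0.000419 in limma). Unlike Cxcl10 and Rsad2, Rtp4 lay on both sides of medium: LPS minus medium was 1.54 ± 0.37 and oxPAPC minus medium -1.89 ± 0.37 (adjusted p = 0.0280 and 0.0061 in limma).

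**Figure D2:**
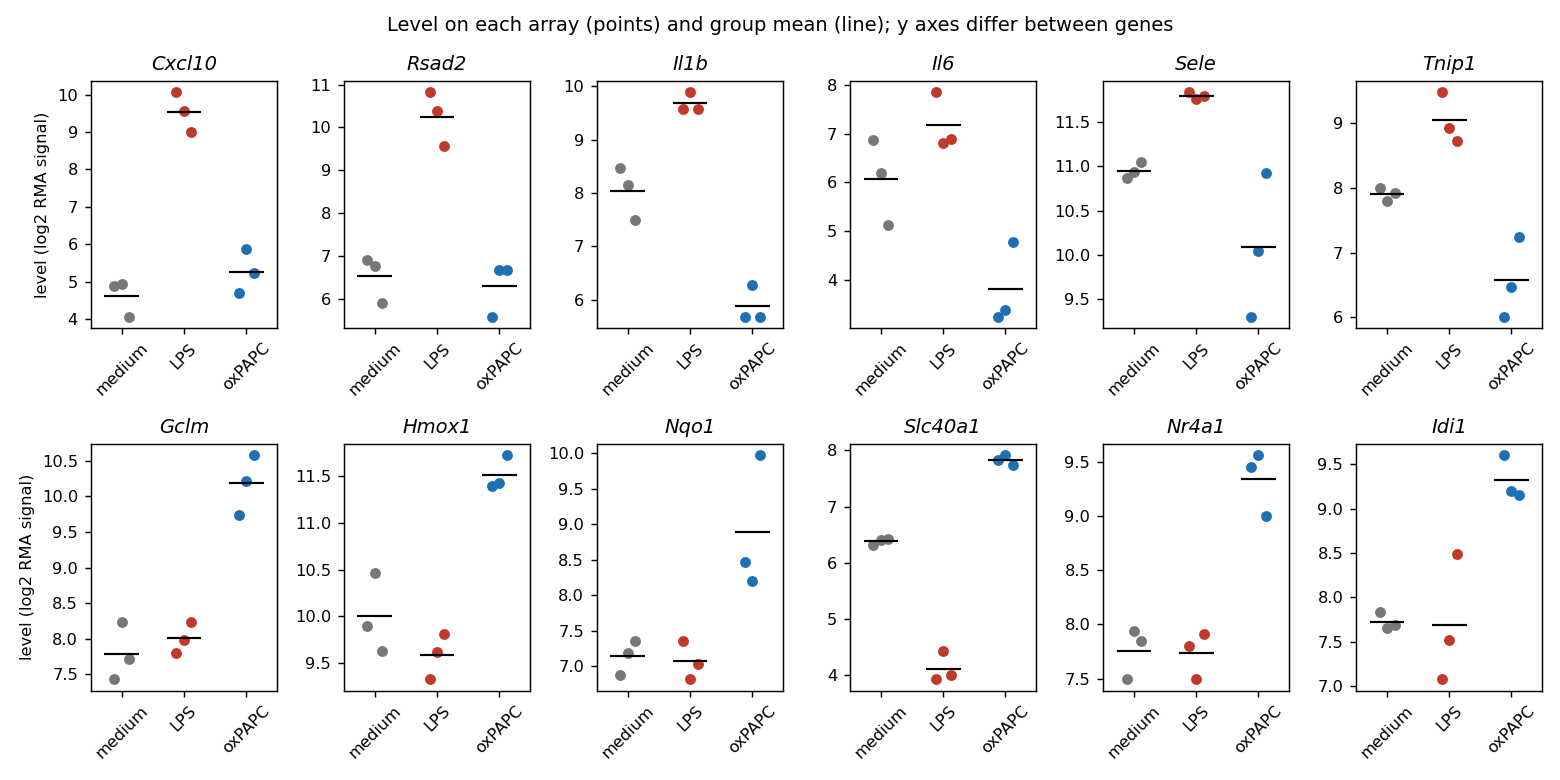
Log2 level (y axis, different for each gene) of 12 genes on each of the 3 medium (grey), 3 LPS (red) and 3 oxPAPC (blue) arrays, with lines at group means. Top row genes lie higher with LPS and bottom row genes higher with oxPAPC. The LPS and oxPAPC arrays overlap in none of them, but all 12 are called genes. Of the called genes, 639 of 653 had no overlap, against 27.8% of all genes tested. Cxcl10 and Rsad2 lie near medium with oxPAPC, whereas Il1b and Il6 lie below it.

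Cytokines and chemokines formed the next group. Of 19 tested, 12 were higher with LPS and none with oxPAPC (63.2% called, against 8.65% of all genes). All 19 had a difference above 0, with a median of 1.19. Without any 1 LPS array or without oxPAPC replicate 13 the count was also 12, and it was 9 without oxPAPC replicate 11 and 10 without replicate 12. Against medium the median was 0.84 with LPS and -0.42 with oxPAPC.

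Il1b, which encodes the inflammatory cytokine interleukin-1 beta, lay at 9.58, 9.89 and 9.58 with LPS and at 5.68, 6.28 and 5.68 with oxPAPC. The groups were tight and far apart, and the difference was 3.81 ± 0.28 (adjusted p = 2.45e-05 in limma). Medium arrays were between them, at 8.46, 8.14 and 7.49. LPS was 1.65 ± 0.28 above medium (adjusted p = 0.0065 in limma), and oxPAPC was below it by more, at -2.16 ± 0.28 (adjusted p = 0.00104 in limma). Il1rn, the natural antagonist of the interleukin-1 receptor, showed the same order, at 8.31, 8.79 and 8.20 with LPS and 4.80, 4.73 and 5.02 with oxPAPC, around medium values of 6.64, 5.98 and 5.70.

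Il6, the cytokine that drives the acute phase response, was at 7.86, 6.82 and 6.90 with LPS and at 3.24, 3.38 and 4.78 with oxPAPC. The difference of 3.39 ± 0.67 was the least precise of the 12 largest (adjusted p = 0.0108 in limma), and its call was lost without oxPAPC replicate 11 or 12, with an adjusted p of at most 0.0695 over all alternatives tried. The LPS arrays did not pass the test against medium (1.13 ± 0.67, adjusted p = 0.295 in limma), whereas the oxPAPC arrays were lower (-2.26 ± 0.67, adjusted p = 0.0337). The oxPAPC mean was below the 40th percentile. Ccl5, a chemokine for T cells and monocytes, differed by 3.25 ± 0.23, with 7.16, 7.53 and 7.50 on LPS arrays and 3.85, 4.16 and 4.42 on oxPAPC arrays, and its oxPAPC mean was also below that percentile.

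NF-kB subunits and the genes that restrain it showed 11 of 17 tested members (64.7%, against 8.65% of all genes) higher with LPS. None was higher with oxPAPC, the median was 1.28 and all 17 differences were above 0. Without oxPAPC replicate 13 the count was 13, and with another array left out it was 10 or 11. Tnip1, a partner of the inhibitor A20 whose window carries the palindromic kappaB match shown above, was at 9.48, 8.92 and 8.73 with LPS and at 6.01, 6.47 and 7.25 with oxPAPC. All LPS arrays were above all medium arrays (7.79 to 8.0), and all oxPAPC arrays below them. The difference was 2.47 ± 0.28 (adjusted p = 0.000549 in limma). Birc3, an inhibitor of apoptosis that acts in the same pathway, differed by 2.21 ± 0.29, Bcl3, an atypical IkB protein, by 1.69 ± 0.28, and Traf1, a receptor adaptor, by 1.64 ± 0.25. Bcl3 was no higher than medium with LPS (-0.15 ± 0.28) and lower with oxPAPC (-1.84 ± 0.28, adjusted p = 0.0019 in limma), so nearly all of its difference was on the oxPAPC side. Traf1 was above medium with LPS (1.07 ± 0.25, adjusted p = 0.0276 in limma) and did not pass the test with oxPAPC (-0.57 ± 0.25). Birc3 did not pass the test against medium with LPS (0.94 ± 0.29, adjusted p = 0.0601 in limma). It was below medium with oxPAPC (-1.27 ± 0.29, adjusted p = 0.0115 in limma).

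The genes of LPS recognition differed in 2 of 13 tested members (15.4%, against 8.65% of all genes), both higher with LPS. Tlr2, the receptor for bacterial lipoproteins, was at 7.77, 7.38 and 6.39 with LPS and at 5.29, 5.11 and 5.18 with oxPAPC (1.99 ± 0.31, adjusted p = 0.0026 in limma). With LPS it did not pass the test against medium (0.88 ± 0.31, adjusted p = 0.089 in limma). With oxPAPC it was below medium (-1.11 ± 0.31, adjusted p = 0.0254 in limma). Myd88, the adaptor of both receptors, differed by 0.83 ± 0.17 and was below medium with oxPAPC (-1.10 ± 0.17) but not called with LPS (-0.27 ± 0.17). Tlr4, the LPS receptor, chosen after its value was seen, differed by 0.17 with an adjusted p of 0.599 in limma. The list's median was 0.17, and its 2 calls became 4 without oxPAPC replicate 13 and 1, Tlr2, when LPS replicate 4 or oxPAPC replicate 11 was left out.

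Adhesion molecules that bring leukocytes to the vessel wall were higher with LPS in 4 of 11 tested members (36.4%, against 8.65% of all genes). None was higher with oxPAPC. Sele (E-selectin) was at 11.84, 11.77 and 11.80 with LPS and at 9.30, 10.04 and 10.92 with oxPAPC, a difference of 1.71 ± 0.30 (adjusted p = 0.0052 in limma). The LPS arrays were nearly equal, while the oxPAPC arrays were spread widely, with replicate 13 close to medium (10.87 to 11.04). Vcam1 differed by 1.66 ± 0.25 and Selp (P-selectin) by 1.56 ± 0.33. Icam1, already high in medium, differed by 0.47 ± 0.12. Neither Sele nor Vcam1 passed the test against medium with LPS (0.85 ± 0.30 and 0.71 ± 0.25, adjusted p = 0.089 and 0.091 in limma). None of the 11 was called above medium with LPS and 1 was called below it. With oxPAPC 4 were called below medium and 1 above it. Vcam1 (-0.95 ± 0.25) and Selp (-1.46 ± 0.33) were below medium with oxPAPC (adjusted p = 0.0218 and 0.0111 in limma). Sele did not pass that test (-0.86 ± 0.30, adjusted p = 0.0568 in limma). The count of 4 higher with LPS than with oxPAPC fell to 2 when LPS replicate 3 or 4 or oxPAPC replicate 11 or 12 was left out. Selp and Icam1 were among the calls lost.

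Of the genes of gp130 receptors, STAT3 and the SOCS inhibitors, 4 of 10 tested (40%, against 8.65% of all genes) were higher with LPS. None was higher with oxPAPC, and the median was 0.69. Osmr, the oncostatin M receptor, differed by 1.10 ± 0.28, Socs2 by 1.03 ± 0.22, Socs3, the feedback inhibitor of gp130 receptors, by 1.00 ± 0.21, and Il6st (gp130 itself) by 0.70 ± 0.16. None of the 4 was called above medium with LPS, and all 4 were below medium with oxPAPC, from -1.06 ± 0.16 (Il6st) to -1.65 ± 0.21 (Socs3). The oxPAPC mean of Socs3 was below the 40th percentile. The count was 6 without oxPAPC replicate 13, 1 without LPS replicate 3, LPS replicate 4 or oxPAPC replicate 11, and 0 without oxPAPC replicate 12.

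Among matrix proteases, Mmp13, a collagenase, was at 7.02, 8.10 and 7.77 with LPS and at 3.83, 3.73 and 3.80 with oxPAPC, with a difference of 3.84 ± 0.34 (adjusted p = 0.000104 in limma). Medium arrays were at 4.56, 4.35 and 3.29, the level of the oxPAPC arrays, whose mean was below the 40th percentile. Mmp14, a membrane-bound protease, differed by 0.99 ± 0.21. These were the 2 calls of 13 tested (15.4%, against 8.65% of all genes). The calls were 6 without oxPAPC replicate 13, and Mmp13 alone without LPS replicate 4, oxPAPC replicate 11 or oxPAPC replicate 12. The plasminogen activators differed as well. Plau (urokinase) was at 10.61, 10.98 and 11.22 with LPS and at 9.37, 9.19 and 9.61 with oxPAPC (1.55 ± 0.20, adjusted p = 0.0011 in limma), and Plat (tissue plasminogen activator) at 9.93, 9.82 and 9.65 against 7.29, 7.70 and 9.26 (1.72 ± 0.37). Plau was above medium with LPS (0.98 ± 0.20), and Plat was below medium with oxPAPC (-1.85 ± 0.37) and level with it in LPS (-0.13 ± 0.37). They were 2 of 9 tested coagulation and fibrinolysis genes (22.2%, against 8.65% of all genes). Plat lost its call without any 1 of LPS replicates 3 and 4 and oxPAPC replicates 11 and 12. Without oxPAPC replicate 13 the coagulation and fibrinolysis list held 4 calls, all higher with LPS.

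On the oxPAPC side the largest difference was that of Slc40a1, which encodes ferroportin, the exporter of iron from cells. It was at 7.82, 7.92 and 7.73 with oxPAPC and at 3.93, 4.43 and 4.01 with LPS, around medium values of 6.31, 6.41 and 6.43. The 3 groups did not touch, and each was tight. LPS minus oxPAPC was -3.70 ± 0.31 (13-fold, adjusted p = 6.08e-05 in limma). OxPAPC was 1.44 ± 0.31 above medium (adjusted p = 0.0094 in limma) and LPS below it by more (-2.27 ± 0.31, adjusted p = 0.0021), to a mean under the 40th percentile. It was the 1 call among 8 tested genes of iron handling and metallothioneins (12.5%, against 8.65% of all genes). The median difference of this list was 0.01.

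NRF2 targets were higher with oxPAPC in 12 of 25 tested members (48%, against 8.65% of all genes). None was higher with LPS, and the median was -0.75. The count was 12 without oxPAPC replicate 13, and with another array left out it ran from 9 (without LPS replicate 4) to 13 (without oxPAPC replicate 11). Against medium the list's median was 0.73 with oxPAPC and -0.10 with LPS, with 13 members called above medium and 1 below it with oxPAPC, and 2 above and 2 below with LPS. Over all tested genes, 8.34% were above and 12.9% below medium with oxPAPC, and 3.36% above and 5.68% below with LPS.

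Gclm, the regulatory subunit of the enzyme that limits glutathione synthesis, was at 9.74, 10.22 and 10.58 with oxPAPC and at 7.80, 7.98 and 8.24 with LPS, while medium ran from 7.43 to 8.23. The difference was -2.18 ± 0.25 (adjusted p = 0.00063 in limma). Hmox1, which encodes the enzyme that breaks down haem, was at 11.40, 11.43 and 11.73 with oxPAPC and at 9.32, 9.61 and 9.81 with LPS, with a difference of -1.94 ± 0.23. Srxn1, which repairs oxidised peroxiredoxins, differed by -1.82 ± 0.30. Nqo1, a quinone reductase, was at 8.47, 8.21 and 9.97 with oxPAPC and at 7.36, 6.82 and 7.03 with LPS (-1.82 ± 0.36, adjusted p = 0.0108 in limma), and its call was lost without LPS replicate 4. In Gclm, Hmox1, Srxn1 and Nqo1 the highest oxPAPC array was replicate 13, the array that stood apart. Over the 12 called NRF2 targets, replicate 13 was the highest oxPAPC array in 10, whereas over all 299 genes higher with oxPAPC it was the highest in 51 and the lowest in 201. Over the 354 genes higher with LPS it was the highest oxPAPC array, the one nearest to LPS, in 229. Trim16, an E3 ligase linked to the same pathway, was outside the list and differed by -1.83 ± 0.21, and Tktl1, a transketolase-like protein, by -1.77 ± 0.38, a call that was lost without LPS replicate 3, LPS replicate 4 or oxPAPC replicate 12.

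Heat shock proteins were higher with oxPAPC in 8 of 18 tested members (44.4%, against 8.65% of all genes) and with LPS in none, with a median of -0.58. This count depended on single arrays: it was 9 without oxPAPC replicate 13, 10 without LPS replicate 10, 4 without LPS replicate 3, and 3 without LPS replicate 4, oxPAPC replicate 11 or oxPAPC replicate 12. Hspa1b, an inducible chaperone of the HSP70 family, was at 11.22, 11.19 and 11.14 with oxPAPC and at 9.05, 10.09 and 10.64 with LPS. The oxPAPC arrays agreed closely and the LPS arrays spread widely, with a difference of -1.26 ± 0.29 (adjusted p = 0.0225 in limma). Hspa1a is nearly identical in sequence, and the probes may not separate them. Hspb8, a small heat shock protein, differed by -1.14 ± 0.19 and Dnajb4, an HSP40 co-chaperone, by -1.05 ± 0.16, and both kept an adjusted p under 0.05 in limma whichever array was left out. Bag3, a co-chaperone of selective autophagy, differed by -0.86 ± 0.21. Against medium, Hspb8 was 1.24 ± 0.19 higher and Dnajb4 0.88 ± 0.16 higher with oxPAPC, and with LPS they were at 0.10 ± 0.19 and -0.17 ± 0.16.

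Genes of sterol synthesis were higher with oxPAPC in 3 of 12 tested members (25%, against 8.65% of all genes). None was higher with LPS, and the median was -0.46. Idi1, an isomerase of the mevalonate pathway, was at 9.60, 9.20 and 9.15 with oxPAPC and at 7.08, 7.52 and 8.49 with LPS (-1.62 ± 0.31, adjusted p = 0.0085 in limma). Sqle, the squalene epoxidase, differed by -1.45 ± 0.31 and Stard4, a cholesterol carrier, by -1.11 ± 0.22. All 3 were above medium with oxPAPC (1.59 ± 0.31, 1.86 ± 0.31 and 1.07 ± 0.22), and none was called against medium with LPS. The count was 4 without oxPAPC replicate 13, 2 without LPS replicate 3, LPS replicate 4 or oxPAPC replicate 12, and 1 without oxPAPC replicate 11. It was 3 with the smooth muscle mean of each array as a covariate and 0 with the endothelial mean.

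Uptake and use of fatty acids differed in 3 of 18 tested members (16.7%, against 8.65% of all genes), all higher with oxPAPC. Lpl, the lipase that frees fatty acids from lipoproteins, was at 7.60, 7.24 and 7.74 with oxPAPC and at 5.47, 4.81 and 5.21 with LPS, on either side of medium (6.29 to 6.91), with a difference of -2.36 ± 0.29 (adjusted p = 0.000759 in limma). Cd36, a scavenger receptor for oxidized lipoproteins and a carrier of fatty acids, was at 8.03, 7.49 and 8.01 with oxPAPC and at 4.89, 6.68 and 6.94 with LPS. LPS replicate 3 was far below the other LPS arrays, and the difference of -1.67 ± 0.40 was -1.03 without it. Against medium Cd36 stood at -1.44 ± 0.40 with LPS (adjusted p = 0.0463 in limma) and 0.24 ± 0.40 with oxPAPC. Its call was lost without oxPAPC replicate 11 or 12, in a fit of the 6 arrays alone and with either cell marker covariate. Acadm, a dehydrogenase of fatty acid oxidation, differed by -0.98 ± 0.22. The count was 5 without oxPAPC replicate 13 and 1 without oxPAPC replicate 11 or 12.

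Among immediate early factors 5 of 21 tested members (23.8%, against 8.65% of all genes) were higher with oxPAPC and none with LPS, with a median of -0.16. Nr4a1, an orphan nuclear receptor, was at 9.45, 9.56 and 9.0 with oxPAPC and at 7.80, 7.49 and 7.91 with LPS (-1.60 ± 0.19, adjusted p = 0.000698 in limma). Its relative Nr4a2 was at 9.55, 9.95 and 9.54 against 8.63, 8.14 and 8.50 (-1.26 ± 0.17). Both were above medium with oxPAPC, by 1.58 ± 0.19 and 1.71 ± 0.17, and neither was called with LPS. Egr2, a zinc finger factor, differed by -1.24 ± 0.27 and Phlda1 by -1.23 ± 0.32, and neither was called against medium with either agent. The count was 6 without oxPAPC replicate 13 and 2 without LPS replicate 3 or 4 or oxPAPC replicate 11 or 12, while Nr4a1 and Nr4a2 kept their calls throughout.

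Other genes among the 12 largest on the oxPAPC side belong to no group above. Tob1, an antiproliferative protein that promotes removal of poly(A) tails, was at 8.40, 8.82 and 7.88 with oxPAPC and at 6.20, 6.07 and 6.59 with LPS (-2.08 ± 0.25). Cks2, a partner of cyclin-dependent kinases, differed by -2.36 ± 0.43, Polg2, the accessory subunit of the mitochondrial DNA polymerase, by -2.35 ± 0.34, and Rasl2-9, a Ran-like GTPase gene, by -2.36 ± 0.29. LPS means of Cks2 and Rasl2-9 were below the 40th percentile. All 12 were called above medium with oxPAPC, where 2 of them, Slc40a1 and Lpl, were called below medium with LPS. Of the 12 largest on the LPS side, 11 were called above medium with LPS, the exception being Il6, and 4 (Il1b, Il1rn, Rtp4 and Il6) below it with oxPAPC.

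**Figure D3:**
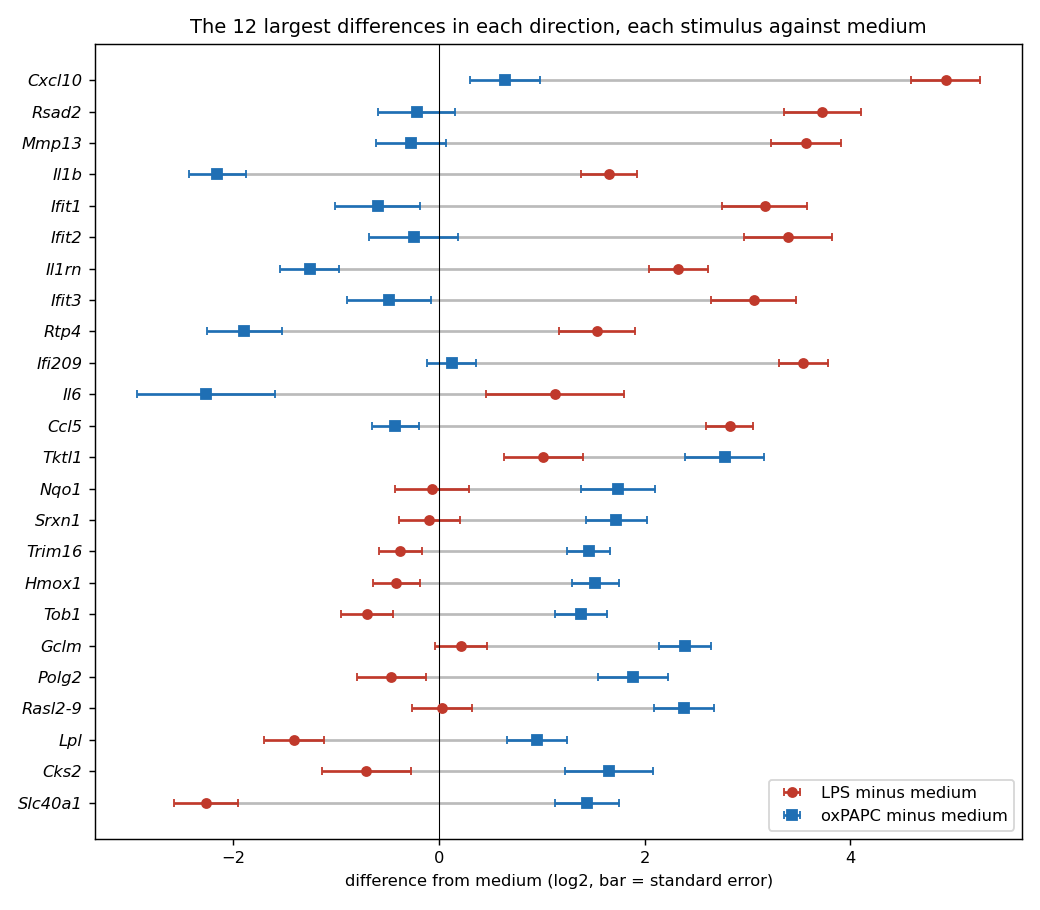
Difference from medium (log2, x axis) with LPS (red circles) and with oxPAPC (blue squares) for the 12 largest differences in each direction, with bars of 1 standard error. Cxcl10 lies at 4.93 and 0.64, Il1b at 1.65 and -2.16, Gclm at 0.21 and 2.39 and Slc40a1 at -2.27 and 1.44, and both sets of points share the 3 medium arrays.

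Endothelial identity genes differed in both directions. Of 23 tested, 5 were higher with LPS and 1 with oxPAPC (26.1% called, against 8.65% of all genes), with a median of 0.45. Cldn5, a tight junction protein, differed by 1.11 ± 0.30 and Cdh5, the cadherin of endothelial junctions, by 0.91 ± 0.22, but Clec14a, an endothelial C-type lectin, was at 7.04, 7.22 and 6.49 with oxPAPC and at 5.42, 4.63 and 5.71 with LPS (-1.67 ± 0.26, adjusted p = 0.0027 in limma). S1pr1, the sphingosine phosphate receptor of the endothelium, differed by 0.89 ± 0.21. Cldn5 arrays of the groups overlapped. Against medium 13 markers were called below with oxPAPC and 6 with LPS, and none above. The 5 calls became 10 without oxPAPC replicate 13, whose marker mean of 8.50 was the highest of its group, and 0 without LPS replicate 3, LPS replicate 4, oxPAPC replicate 11 or oxPAPC replicate 12. Clec14a kept its call in all of these. Pecam1, chosen after its value was seen, differed by 0.06 (adjusted p = 0.806 in limma).

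No smooth muscle marker of 17 was called between LPS and oxPAPC. Their median difference was -0.24, with 3 of the 17 differences above 0. Kcnmb1 had the smallest p (-0.75 ± 0.37, adjusted p = 0.222 in limma). Against medium 11 of the markers were called above with oxPAPC and 3 with LPS, and none below. Their summed linear level ran from 15440 to 18980 with LPS, 17160 to 22730 with oxPAPC and 7558 to 13410 in medium, and that of the endothelial markers from 13630 to 17700, 10760 to 14420 and 17160 to 19470. For both sums the ranges with LPS and with oxPAPC overlapped. With each array's smooth muscle mean as a covariate 354 genes were called, and with its endothelial mean 215. Interferon-induced genes had 17 and 13 calls on the LPS side under the smooth muscle and the endothelial covariate, cytokines 12 and 9, NF-kB genes 10 and 10, and NRF2 targets 13 and 14 on the oxPAPC side. Heat shock proteins had 4 and 2, sterol genes 3 and 0, immediate early factors 3 and 2 and fatty acid genes 2 and 1 on the oxPAPC side. On the LPS side adhesion molecules had 3 and 2, genes of gp130 and SOCS 2 and 1, aminoacyl-tRNA synthetases 1 and 0, and endothelial markers 0 under both. The endothelial mean is made from these same endothelial markers, so their count under it was largely fixed in advance and decides nothing. Beyond these fits, the part of cell composition in the differences was not tested. Macrophage and leukocyte markers held 1 call of 19 (5.26%, against 8.65% of all genes). It was Fcgr1, an Fc receptor that interferon induces (1.25 ± 0.22), with an oxPAPC mean below the 40th percentile. The mean level of these markers was 5.41 to 5.90 with LPS and 5.47 to 5.65 with oxPAPC. Fibroblast markers had no call of 12 (smallest p in Lum, 0.77 ± 0.30, adjusted p = 0.134 in limma), and erythroid and platelet markers none of 6 (Hba-a1, 1.37 ± 0.54, adjusted p = 0.140).

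**Figure D4:**
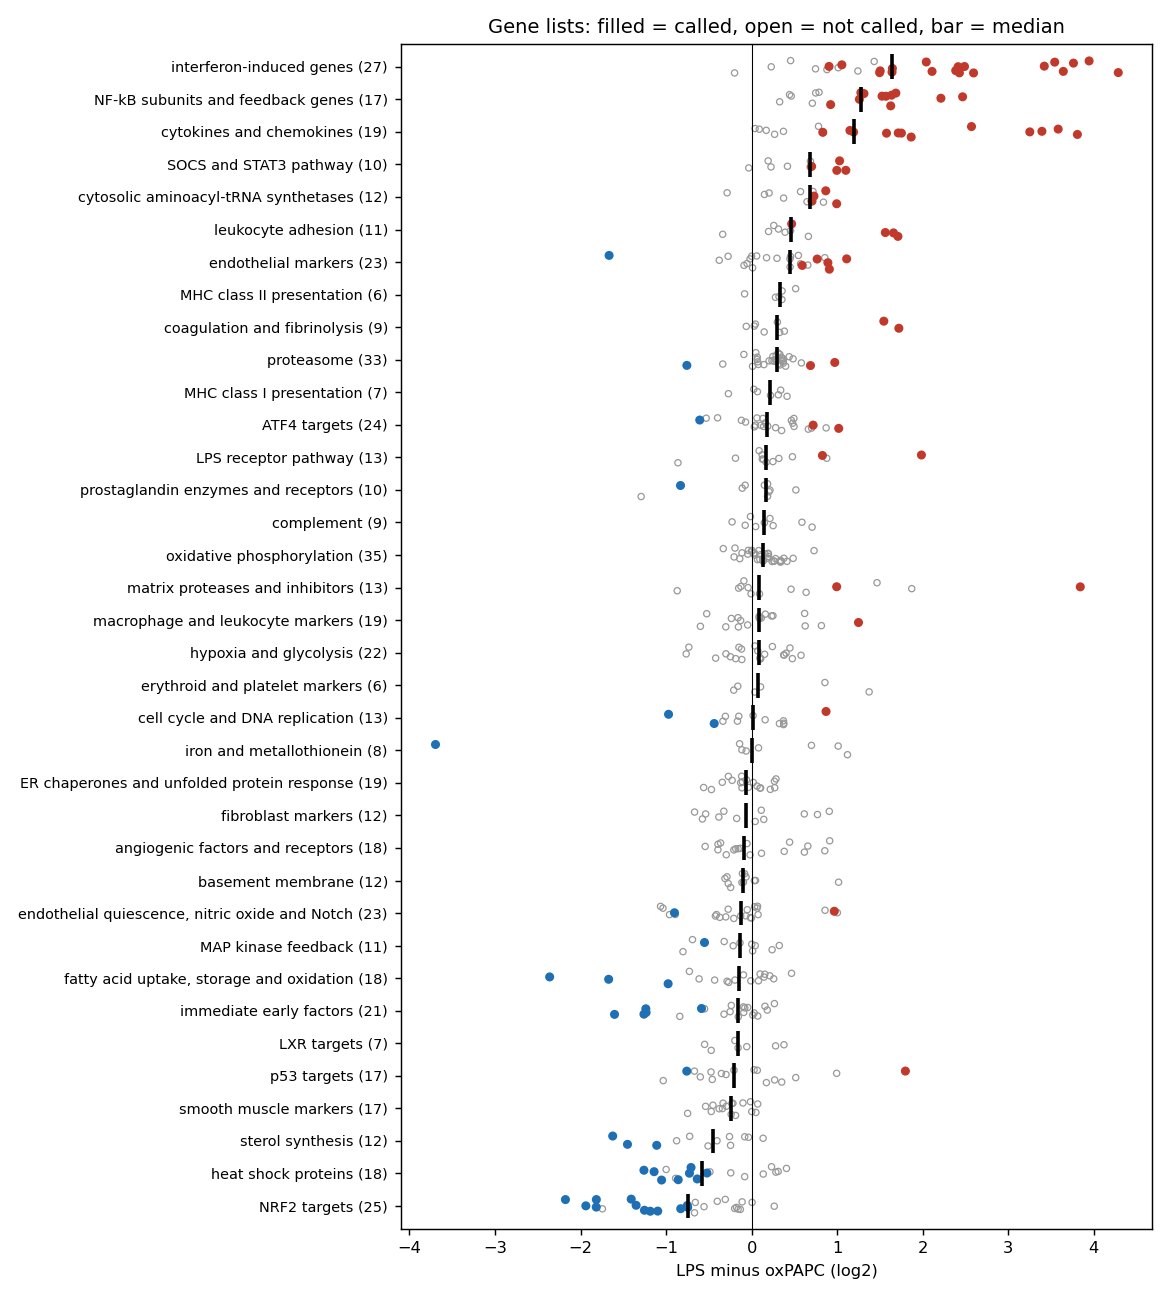
LPS minus oxPAPC (log2, x axis) for every tested member of the 36 gene lists, with the number tested in brackets, filled points for calls (red higher with LPS, blue higher with oxPAPC), open points for the rest and a bar at each median. Interferon-induced genes have the highest median (1.65) and NRF2 targets the lowest (-0.75).

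Cytosolic aminoacyl-tRNA synthetases, which load amino acids onto tRNAs, were higher with LPS in 4 of 12 tested members (33.3%, against 8.65% of all genes). None was higher with oxPAPC, and the median was 0.68. Wars differed by 0.99 ± 0.24, Iars by 0.87 ± 0.16, Gars by 0.73 ± 0.19 and Eprs by 0.71 ± 0.17. The difference in Iars was on the oxPAPC side (-1.34 ± 0.16 against medium, -0.48 ± 0.16 with LPS). The count was 9 without oxPAPC replicate 13, 6 without LPS replicate 10, and 1 without LPS replicate 3 or 4 or oxPAPC replicate 11 or 12. ATF4 targets, the amino acid response to which the synthetases also belong, were called in 3 of 24 members (12.5%, against 8.65% of all genes). The 2 higher with LPS were Slc7a3, an arginine carrier (1.02 ± 0.28), and Psat1 of serine synthesis (0.72 ± 0.17). Both the LPS and the oxPAPC mean of Slc7a3 were below the 40th percentile, so its size rests on values near background. The 1 higher with oxPAPC was Atf3, a stress factor (-0.61 ± 0.17). Each of these 3 calls was lost with at least 1 array left out. No gene of 19 of the endoplasmic reticulum chaperones and unfolded protein response was called (smallest p in Edem1, -0.47 ± 0.14, adjusted p = 0.0586 in limma), with a median of -0.06. Proteasome subunits held 3 calls of 33 (9.09%, against 8.65% of all genes): Psmb9, the interferon-inducible subunit of the immunoproteasome (0.97 ± 0.23), Psma6 (0.69 ± 0.19) and, in the other direction, Psmd11 (-0.76 ± 0.21). Psmd11 lost its call whichever array was left out, and its further probe sets differed by only -0.16 and -0.06. One further probe set of Psmb9 differed by 1.29. Another, at low mean levels of 4.35 with LPS and 4.40 with oxPAPC, differed by -0.05. Without oxPAPC replicate 13, 10 subunits were higher with LPS. No subunit was called without LPS replicate 3, LPS replicate 4 or oxPAPC replicate 11.

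The remaining lists held few calls or none. Of all genes, 8.65% were called. The shares were 23.1% in the cell cycle list, 11.8% in p53 targets and 10% in prostaglandin genes. In MAP kinase feedback genes the share was 9.09%, and in endothelial quiescence, nitric oxide and Notch genes 8.7%. Of 13 cell cycle genes, Mki67, a marker of proliferation, was higher with LPS (0.87 ± 0.21), and Cdc6, a loader of replication helicase, and Ccne1, cyclin E, higher with oxPAPC (-0.97 ± 0.22 and -0.44 ± 0.12). Of 17 p53 targets, the death receptor gene Fas was higher with LPS, at 7.76, 8.15 and 7.88 against 6.07, 5.97 and 6.35 (1.80 ± 0.27, adjusted p = 0.0025 in limma), and Plk2 higher with oxPAPC (-0.76 ± 0.19). Of 23 genes of endothelial quiescence, nitric oxide and Notch, Gja4, which encodes the gap junction protein connexin 37, was higher with LPS (0.97 ± 0.21) and Efnb2, the arterial ephrin, higher with oxPAPC (-0.90 ± 0.20). Ptger4, a prostaglandin E2 receptor, was higher with oxPAPC (-0.83 ± 0.20), 1 of 10 prostaglandin genes, and Dusp1, a phosphatase of MAP kinases, likewise (-0.56 ± 0.13), 1 of 11 feedback genes. Of these called genes, Fas alone kept its call whichever array was left out. No call fell among 7 LXR targets, 22 genes of hypoxia and glycolysis, 35 of oxidative phosphorylation, 18 angiogenic factors and receptors, 7 of MHC class I and 6 of class II presentation, 9 of complement or 12 of basement membrane. The members of these with the smallest p were Smpdl3a (-0.55 ± 0.17), Pfkfb3 (0.45 ± 0.15), Cyc1 (0.49 ± 0.19), Flt4 (0.91 ± 0.28), H2-K1 (0.34 ± 0.15), H2-Aa (0.51 ± 0.22), C5ar1 (0.71 ± 0.24) and Lamb1 (1.02 ± 0.38), with adjusted p from 0.0622 to 0.177 in limma. Without oxPAPC replicate 13, 3 angiogenic, 2 hypoxia and glycolysis and 1 oxidative phosphorylation gene were called, all higher with LPS. In that setting p53 targets held 2 calls higher with LPS and 4 higher with oxPAPC. Genes of endothelial quiescence, nitric oxide and Notch held 3 each way. Without LPS replicate 3, 1 complement gene was called higher with LPS.

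Of the 90 genes chosen by rule for naming, 78 were called. The call held for 38 of the 78 whichever of the 6 arrays was left out, and for 35 under every other setting in which they were tested too. Of these, Fcgr1 and Rasl2-9 were tested in 14 of the 15 alternatives, since the 60th percentile filter removed them. Those 35 were Cxcl10, Rsad2, Ifit1, Ifit2, Ifit3, Rtp4, Ifi209, Il1b, Il1rn, Ccl5, Fcgr1, Tnip1, Birc3, Bcl3, Traf1, Tlr2, Fas, Sele, Vcam1, Mmp13 and Plau on the LPS side and Slc40a1, Gclm, Hmox1, Srxn1, Trim16, Tob1, Polg2, Rasl2-9, Lpl, Nr4a1, Nr4a2, Hspb8, Dnajb4 and Clec14a on the oxPAPC side. No named gene changed direction in any setting. Where called genes had further probe sets, 422 of 457 of these differed in the same direction as the one used. Their sizes could be far smaller. A further probe set gave 1.24 for Rtp4 (3.43 in the one used) and -1.14 for Lpl (-2.36). Further probe sets gave -0.81 and -0.08 for Hspb8 (-1.14) and 0.42 and 0.18 for Wars (0.99). For Birc3 the size was larger, 2.91 against 2.21. Olr1, the endothelial receptor for oxidized lipoprotein, falls outside the naming rule and was singled out after its values were seen, because of a single array. It was at 9.12, 9.27 and 8.55 with LPS and at 5.54, 5.70 and 8.26 with oxPAPC, where only replicate 13 was near the LPS level. The difference was 2.48 ± 0.56 (adjusted p = 0.0199 in limma).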

How the data were processed

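The authors deposited log2 signals of 22626 probe sets. The submitters' processing notes name RMA and the affy package, without versions. RMA equalises the distributions of the arrays, which hides any shift shared by most genes. The sources used here do not say if the 22 arrays were normalized in 1 run. Per the labels' protocols, amplified and biotin-labelled RNA was used, with RIN 7 or more. Probe sets with 1 symbol in the platform annotation were named, with symbols updated from RefSeq (GRCm38.p6), and each gene was read from the probe set that had its highest mean in all 22 arrays. A gene was tested if at least 3 of the 12 incubated arrays held it above their 40th percentile, using limma 3.58.1 in R 4.3.3 (lmFit, eBayes, two-sided). The 4 incubated groups of 3 arrays were fitted together, with contrasts for LPS against oxPAPC and for each against medium, and Benjamini-Hochberg adjustment over 7550 genes. Called means an adjusted p under 0.05.

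The members and gene lists were chosen with earlier results of these data known. The 36 lists held 765 entries, of which 663 were on the array (17 through an older symbol) and 576 were tested. They are described by counts and medians. Genes were named by rule: the called genes with the 12 largest differences each way, at most 4 called members from any list and, where a list had no call, its member of smallest p. Motifs were searched in the first listed RefSeq window of each gene. In simulated data 67, 67 and 66 of 7550 genes were changed by 0.5, 1 and 2 (log2). The fit for LPS against oxPAPC recovered 14.9%, 71.6% and 93.9% of these, with 5 false calls among 125. Fewer genes were changed there than were called in the data, so these rates may not carry over. Alternatives covered the arrays in the fit, the filter, the probe set rule, scaling, the variance prior, marker covariates and each array left out.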

Additional observations from a re-analysis of the deposited data

How the results depend on the processing

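The 653 calls (354 higher with LPS, 299 with oxPAPC) stayed within 1.5 times under no filter, a 60th percentile filter, the mean of a gene's probe sets, median centring, cyclic loess and a trended robust variance prior (616 to 753). A fit of the 6 arrays alone, with fewer arrays to estimate the spread, gave 347 (188 and 159). The smooth muscle mean as a covariate gave 354 (197 and 157), and the endothelial mean, an alternative chosen after seeing the data, gave 215 (125 and 90); the cause was not tested. With an array left out the calls ranged from 244 to 1206, those higher with LPS from 140 to 680 and those higher with oxPAPC from 98 to 526. Leaving out LPS replicate 3 (320) or 4 (261) or oxPAPC replicate 11 (259) or 12 (244) lowered the count by more than 1.5 times, leaving out oxPAPC replicate 13 raised it to 1206, and without LPS replicate 10 it was 683. No named gene reversed. Median centring and cyclic loess moved the median of all genes from 0.01 to -0.02 and -0.00161. No paired analysis was possible because LPS (replicates 3, 4 and 10) and oxPAPC (replicates 11, 12 and 13) share no replicate number. With 3 arrays a group, most changes of 0.5 (log2) in the simulated data were missed. OxPAPC means of 43 called genes and LPS means of 22 were below the 40th percentile, where sizes rest on values near background.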
